A study of Mus musculus with 32 samples.

Results

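The subject is the CpGs of the 4 Hox gene clusters in the mouse retina, read by reduced representation bisulfite sequencing (RRBS). A CpG is a cytosine followed by guanine, the site at which mammalian DNA is methylated, and its methylation level is the percent of reads that stayed unconverted by bisulfite. The members were the CpGs inside fixed windows of the GRCm38 genome: chr6:52150000-52265000 for HoxA, chr11:96190000-96370000 for HoxB, chr15:102915000-103042000 for HoxC and chr2:74660000-74770000 for HoxD. Reads of both strands were added, and a CpG was kept when it held at least 10 reads in every library. This left 3206 Hox cluster CpGs of 1071432 in the series, of which 906 lay in HoxA, 777 in HoxB, 622 in HoxC and 901 in HoxD. The windows hold 12660 CpGs in the reference sequence, so 25.3% of them were measured in all libraries, and 2603 of the 3206 (81.2%) lay in CpG islands.

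Hox genes encode homeodomain transcription factors that give cells along the body axis their position, and in each cluster the genes lie in the order in which they are used from head to tail. The eye forms from neural tissue in front of the Hox-expressing region. In tissues that do not use them, Hox clusters are held silent by Polycomb group complexes, and the clusters are known as long, CpG-dense domains with little DNA methylation.

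The series compared retinas of mice from the International Space Station with those of ground control mice. All were female C57 BL/6J mice, 16 weeks old at launch and 21 weeks old by the sample labels. The spaceflight mice lived in animal enclosure modules for 37 days, and were killed and frozen on orbit. The ground control mice were kept in the same kind of habitat on Earth. Each RRBS library came from 1 retina of 1 mouse, with 8 spaceflight mice (3 left and 5 right eyes) and 8 ground control mice (3 left and 5 right eyes). Each sample held all cell types of the retina, so a partial level in all cells and full methylation in a minor cell type cannot be told apart. RNA sequencing of 9 spaceflight and 7 ground control retinas is used below for the Hox genes and their regulators. One of the RNA libraries, M21, is spaceflight by its source name and ground control by its condition label; it was counted as spaceflight, and no Hox gene or regulator was called with either reading. Retinal markers were high in every RNA library, with the arrestin Sag, which ends the light response of rods, at 1587 ± 309 FPKM (SD, n = 9) in spaceflight and 1531 ± 325 FPKM (SD, n = 7) in ground control retinas. RNA of neighbouring eye tissue varied widely, since the lens crystallin Cryaa ran between 0.107 and 9594 FPKM in spaceflight and between 1.82 and 15011 FPKM in ground control libraries. Rpe65, of the pigment epithelium, ran between 52.4 and 400.3 FPKM and between 59.2 and 571.6 FPKM.

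Depth was similar between the groups. The Hox windows held 162640 to 220491 reads per spaceflight library and 148408 to 258762 per ground control library, and the median reads per Hox CpG were 46 to 66 and 41 to 73. Over all libraries 86252 of 3137477 reads on Hox cluster CpGs were methylated, or 2.75% (exact 95% binomial interval 2.73 to 2.77%, which covers counting error only). Libraries M31 and M39, both from left eyes of ground control mice, stood apart with the highest mean level in all 4 clusters, and the comparison of mean levels per CpG is given with and without them.

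The sequences below show what a methylated and an unmethylated part of a cluster look like, and capitals mark the CpGs that were measured. Both runs of methylated CpGs lie between Hoxb13 and Hoxb9, at chr11:96208568-96208778 and chr11:96231300-96231422. The promoters are the 250 bases before the start of Hoxa13, at chr6:52260881-52261130, and of Hoxd4, at chr2:74721728-74721977. All are from the plus strand of GRCm38, 5′ to 3′, and Hoxa13 is a gene of the minus strand.
HoxB run 1: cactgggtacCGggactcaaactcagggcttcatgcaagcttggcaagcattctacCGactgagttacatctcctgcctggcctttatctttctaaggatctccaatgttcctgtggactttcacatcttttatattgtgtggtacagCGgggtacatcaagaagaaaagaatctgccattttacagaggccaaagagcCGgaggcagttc
HoxB run 2: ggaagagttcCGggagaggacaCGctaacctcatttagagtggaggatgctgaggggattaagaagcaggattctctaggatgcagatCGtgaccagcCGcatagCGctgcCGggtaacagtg
Hoxa13 promoter: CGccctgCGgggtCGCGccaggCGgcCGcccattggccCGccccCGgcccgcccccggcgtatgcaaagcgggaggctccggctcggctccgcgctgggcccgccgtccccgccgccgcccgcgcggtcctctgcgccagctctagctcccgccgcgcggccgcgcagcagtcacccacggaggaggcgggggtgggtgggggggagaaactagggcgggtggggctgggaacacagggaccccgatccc
Hoxd4 promoter: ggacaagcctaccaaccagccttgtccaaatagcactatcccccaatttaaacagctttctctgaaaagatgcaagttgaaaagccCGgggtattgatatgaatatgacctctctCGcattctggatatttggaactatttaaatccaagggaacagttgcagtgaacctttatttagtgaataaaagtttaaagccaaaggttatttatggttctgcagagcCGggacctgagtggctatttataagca

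The 4 CpGs of the first run averaged 82.6% in spaceflight and 82.8% in ground control mice, and the 6 CpGs of the second averaged 68.5% and 68.4%. The Hoxa13 stretch holds 35 CpGs in 80% GC, and its 8 measured CpGs averaged 0.715% in spaceflight and 0.445% in ground control mice. The Hoxd4 stretch holds 3 CpGs in 40.4% GC, and all 3 were measured, at 14.9% in spaceflight and 16.5% in ground control mice. The 4 sequences were picked by the levels of their promoters or CpGs, so their contrast in level is no result. Of them the Hoxa13 stretch was GC-rich and, where measured, nearly unmethylated. Its measured CpGs all lie at the end nearest the gene start. The Hoxd4 stretch was CpG-poor and partly methylated. The HoxB runs, at 47.4% and 54.5% GC, had the highest mean levels.

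Nearly all Hox cluster CpGs were close to unmethylated. Of the 3206, 2928 (91.3%) had a mean level under 5%, 242 lay between 5 and 20%, 19 between 20 and 50%, and 17 at 50% or more. HoxC had the smallest share under 5% (85.7%) and HoxD the largest (95.1%). The 17 most methylated CpGs were not spread over the clusters, since 15 lay in HoxB and 2 in HoxD, and in HoxA and HoxC no CpG reached 50%.

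Few CpGs were free of methylated reads. At 36 CpGs (1.12%) no methylated read was found in any library, against 4.28% of the other autosomal CpGs. One of them, at position 52221629 of chromosome 6 between HoxA genes, had 0 of 1248 reads methylated, which allows a level of up to 0.240%. In islands the share at 0 was 1.31% of Hox against 7.31% of other autosomal CpGs, and outside islands 0.332% against 0.167%. Hox CpGs were thus seldom high, and less often at exactly 0 than others in islands but not outside them. The reads per CpG of the 2 sets were not compared. The part of incomplete bisulfite conversion in so few methylated reads was not tested.

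**Figure D1:**
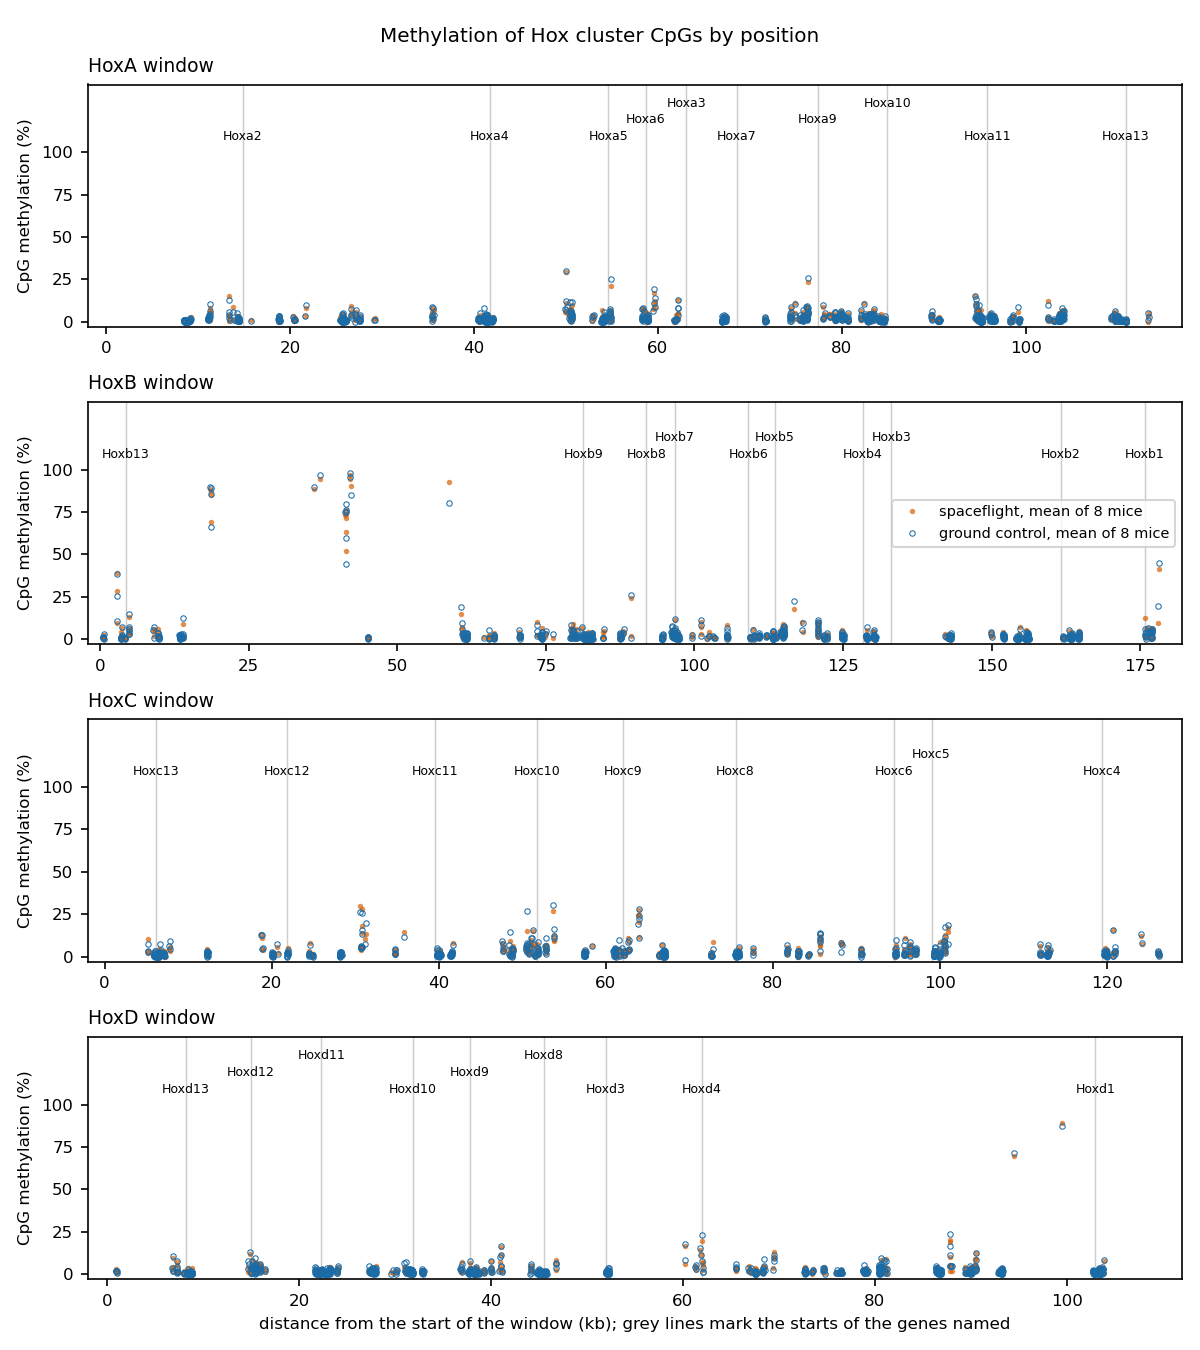
Methylation level of each Hox cluster CpG (y axis, percent) against its distance from the start of the cluster's window (x axis, kb), with the mean of 8 spaceflight mice as filled points, the mean of 8 ground control mice as open circles and grey lines at the starts of the Hox genes named. Most points lie near 0, and the 17 CpGs at 50% or more sit in the stretch between Hoxb13 and Hoxb9 (15) and between Hoxd4 and Hoxd1 (2).

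The methylated CpGs of HoxB lay in a stretch of 40.2 kb, chr11:96208578-96248803, inside the long interval that separates Hoxb13, the most posterior gene, from Hoxb9. It was delimited from the levels themselves, so its values are a description. It held 21 shared CpGs, none in an island, and 15 were at 50% or more. The mean levels of its single CpGs ran between 0.249% and 97.5%, so high and low CpGs were mixed. Between the CpGs at positions 96232198 and 96248802 of chromosome 11, no shared CpG reached 50%. The stretch was thus not evenly methylated, and its mean averages high and low CpGs. The mean of the 21 was 59.3%, 61.8% and 64.3% (lowest, median and highest mouse) after spaceflight, against 59.8%, 61.4% and 64.1% in ground control mice. The ranges of the groups overlapped over nearly their whole width. The 59 CpGs on the Hoxb13 side averaged 3.47 ± 0.380% in spaceflight and 3.47 ± 0.361% in ground control mice (SD, n = 8 each). The 697 CpGs from there to Hoxb1 averaged 1.90 ± 0.0944% and 2.02 ± 0.177%. The highest CpG of all 4 clusters, at position 96232010 of chromosome 11 in this interval, stood at 97.1 ± 2.11% in spaceflight and 97.9 ± 2.19% in ground control mice.

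Both methylated CpGs of HoxD lay in introns of Haglr, a long noncoding RNA gene next to Hoxd1. The CpG at position 74754445 of chromosome 2 measured 63.2%, 69.0% and 79.6% (lowest, median and highest mouse) after spaceflight, against 59.8%, 72.0% and 77.9% in ground control mice. The CpG at position 74759519 measured 82.4%, 89.4% and 95.7% after spaceflight, against 82.1%, 85.7% and 94.3%. At both CpGs the groups overlapped and every mouse was well above the level of the surrounding cluster.

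Next came a tier of partly methylated CpGs, most of them in gene bodies. In HoxA the highest CpG, in a Hoxa3 intron at position 52199962 of chromosome 6, stood at 29.1 ± 4.98% in spaceflight and 29.7 ± 5.89% in ground control mice. In HoxC the highest, in the Hoxc10 intron at position 102968715 of chromosome 15, stood at 26.7 ± 7.54% and 30.5 ± 5.0%. Hotair, the long noncoding RNA gene between Hoxc12 and Hoxc11, had 2 exonic CpGs in this tier, at 29.8 ± 4.43% and 28.0 ± 6.53% in spaceflight and 26.1 ± 6.70% and 25.7 ± 4.42% in ground control mice. Hoxb1, used in the hindbrain, had an exonic CpG at position 96368144 of chromosome 11 with 41.3 ± 5.80% and 45 ± 5.34% (SD, n = 8 each for all).

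The edges of the low domain differed between clusters. In the 50 kb before HoxA 9 CpGs averaged 89.2 ± 2.86% in spaceflight and 90.3 ± 1.35% in ground control mice, whereas 27 CpGs in the 20 kb beyond the Hoxa13 end of the window were still at 2.92 ± 0.394% and 2.81 ± 0.472%. In HoxB the order was alike: 4 CpGs in the 20 kb beyond the Hoxb1 end averaged 83.1 ± 3.41% and 82.7 ± 5.0%, and 14 CpGs in the 20 kb on the Hoxb13 side 1.71 ± 0.570% and 1.63 ± 0.609%. Low levels thus ran past the posterior end of both clusters, while the CpGs measured beyond the anterior end were methylated. No shared CpG lay in the 20 kb before the HoxA window, so the border itself was not measured there. The anterior border of HoxB rests on 4 CpGs. In HoxC both sides were low within 20 kb, with 1.14 ± 0.504% and 0.972 ± 0.448% before Hoxc13 and 3.06 ± 0.667% and 3.52 ± 0.590% after Hoxc4. Before Hoxd13, 117 CpGs within 20 kb averaged 4.08 ± 0.336% and 4.03 ± 0.313% (SD, n = 8 each for all).

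Hox cluster CpGs were compared with the other autosomal CpGs within each mouse, by an exact two-sided sign-flip test over 16 mice, whose smallest possible p is 3.05e-05. In CpG islands the mean level was 1.64 ± 0.0794% at 2603 Hox CpGs, against 8.76 ± 0.0474% at 600139 other CpGs, in spaceflight mice, and 1.73 ± 0.161% against 8.77 ± 0.0589% in ground control mice (SD, n = 8 each). The difference was -7.08 percentage points and negative in 16 of 16 mice (exact p = 3.05e-05, adjusted p = 3.23e-05 over 18 such comparisons).

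The gap was far wider outside islands. There Hox CpGs stood at 6.37 ± 0.232% against 74.2 ± 0.493% elsewhere in spaceflight mice, and at 6.54 ± 0.308% against 74.2 ± 0.484% in ground control mice. The gap was -67.7 points and was seen in 16 of 16 mice with the same p. Most Hox CpGs outside islands lie close to one, so the comparison was split by distance. Within 2 kb of an island, 516 Hox CpGs averaged 4.34% against 60.8% in spaceflight and 4.52% against 60.8% in ground control mice. Beyond 2 kb, 87 Hox CpGs averaged 18.4% against 78.5% and 18.5% against 78.6%. Both differences, -56.3 and -60.0 points, were negative in 16 of 16 mice (exact p = 3.05e-05, adjusted p = 3.23e-05 each).

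**Figure D2:**
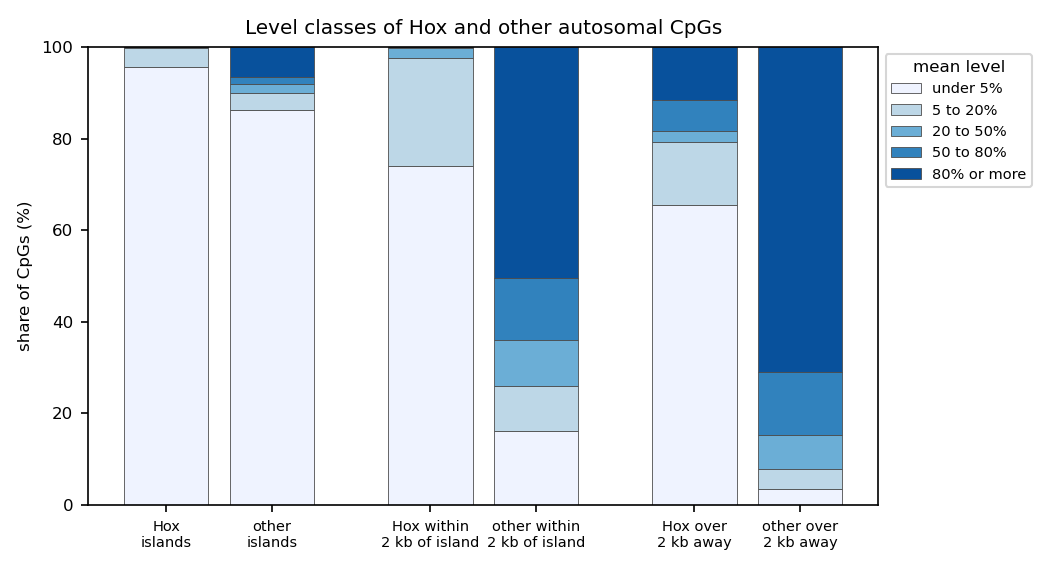
Share of CpGs (y axis, percent) in 5 classes of mean methylation level over 16 mice, for Hox cluster CpGs and the other autosomal CpGs in islands, within 2 kb of one and farther away. Under 5% were 74.0% of Hox CpGs within 2 kb of an island, against 16.1% of the others, and 65.5% against 3.57% farther away.

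The low mean of Hox islands came with few highly methylated CpGs and not with a lower base level. In islands the median CpG level was 1.14% for Hox and 0.447% for other CpGs, so the typical Hox island CpG read higher. Both medians are low, and the part of incomplete bisulfite conversion in them was not tested. For scale, 12 mitochondrial CpGs averaged between 0.345% (M31) and 0.997% (M26) per library. None of the Hox island CpGs reached 50%, whereas 1.46% of other island CpGs lay between 50 and 80% and 6.66% at 80% or more. In a mouse's own values, 8.84% of Hox island CpGs were at 5% or more, against 14.7% of the others, in spaceflight mice, and 9.93% against 14.9% in ground control mice (16 of 16 mice, exact p = 3.05e-05, adjusted p = 3.23e-05).

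Levels climbed less with distance from a gene start than elsewhere. Within 250 bp of an annotated start, 605 Hox CpGs averaged 1.53 ± 0.0638% against 2.73 ± 0.0315% at other CpGs in spaceflight mice, and 1.62 ± 0.237% against 2.72 ± 0.0413% in ground control mice. Farther than 5 kb from a start, 369 Hox CpGs averaged 4.96 ± 0.172% against 72.5 ± 0.425%, and 5.03 ± 0.321% against 72.5 ± 0.409% (SD, n = 8 each). By annotation, Hox CpGs in promoters (1 kb to either side of a start) were lowest, at 1.71 ± 0.0623% and 1.80 ± 0.178% in spaceflight and ground control mice. Exons came next at 2.61 ± 0.107% and 2.64 ± 0.183%, then introns at 3.03 ± 0.149% and 3.22 ± 0.288%. Intergenic Hox CpGs, among them those of the HoxB stretch, stood at 7.34 ± 0.170% and 7.52 ± 0.185%.

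The clusters differed from each other in every mouse. HoxB was highest, at 3.64 ± 0.0835% in spaceflight and 3.74 ± 0.166% in ground control mice, followed by HoxC at 2.77 ± 0.113% and 2.92 ± 0.161%. HoxA stood at 2.09 ± 0.0596% and 2.18 ± 0.226%, and HoxD at 1.84 ± 0.0750% and 1.94 ± 0.222% (SD, n = 8 each). The smallest gap, HoxA minus HoxD, was 0.246 points and positive in 16 of 16 mice, and the other 5 pairs also kept their sign in 16 of 16 (exact sign-flip p = 3.05e-05, adjusted p = 3.23e-05 each).

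The place of HoxB depended on its methylated stretch. Without those 21 CpGs HoxB averaged 2.02% in spaceflight and 2.13% in ground control mice, which is 0.751 and 0.791 points under HoxC. By the median CpG level, HoxB minus HoxC was -0.613 points and negative in 15 of 16 mice (exact p = 6.1e-05, adjusted p = 6.1e-05). In islands alone HoxC was highest, at 2.03% and 2.14%, followed by HoxA at 1.78% and 1.86%, HoxB at 1.55% and 1.65% and HoxD at 1.29% and 1.37% in spaceflight and ground control mice. Each of the 3 steps of this order held in 16 of 16 mice (exact p = 3.05e-05, adjusted p = 3.23e-05 each).

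The main comparison set spaceflight against ground control. No difference in mean level passed the exact two-sided permutation test of 8 against 8 libraries (smallest possible p 0.000155) after adjustment over 7 means. Over all Hox CpGs the lowest, median and highest mouse had 2.44%, 2.52% and 2.63% after spaceflight, against 2.47%, 2.57% and 2.98% in ground control mice. The 8 spaceflight values lay inside or just under the range of the ground control values. The means were 2.53 ± 0.0584% and 2.63 ± 0.185% (SD, n = 8 each), a difference of -0.104 points (95% interval -0.254 to 0.0308, exact p = 0.175, adjusted p = 0.339).

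By cluster, HoxC came closest to the threshold. Its mice had 2.54%, 2.80% and 2.90% after spaceflight (lowest, median and highest) and 2.74%, 2.91% and 3.18% in ground control mice, and the groups overlapped. The difference was -0.152 points (95% interval -0.301 to -0.00481, exact p = 0.0440, adjusted p = 0.308). The differences of HoxA (-0.0881 points, exact p = 0.372, adjusted p = 0.372), HoxB (-0.0949 points, exact p = 0.178, adjusted p = 0.339) and HoxD (-0.0958 points, exact p = 0.304, adjusted p = 0.355) were each smaller than the SD of the ground control mice. The same held for island CpGs (-0.0903 points, exact p = 0.194, adjusted p = 0.339) and for Hox CpGs outside islands (-0.165 points, exact p = 0.252, adjusted p = 0.353).

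Ground control mice M31 and M39 weighed on these means. M31 had 2.602% in HoxA, 3.98% in HoxB, 3.18% in HoxC and 2.37% in HoxD, and M39 had 2.45%, 3.97%, 3.04% and 2.16%. In the other 6 ground control mice the level was at most 2.15% in HoxA and 1.94% in HoxD. Without both libraries, an alternative chosen after seeing the data, the difference over all Hox CpGs was -0.00976 points (exact p = 0.751, adjusted p = 0.924). The sign turned in HoxA (0.0281 points) and HoxD (0.0130 points), and HoxC had -0.0900 points (exact p = 0.183, adjusted p = 0.924). HoxB had -0.0160 points, island CpGs -0.00882 points and CpGs outside islands -0.0138 points (adjusted p = 0.924 each by the exact permutation test).

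**Figure D3:**
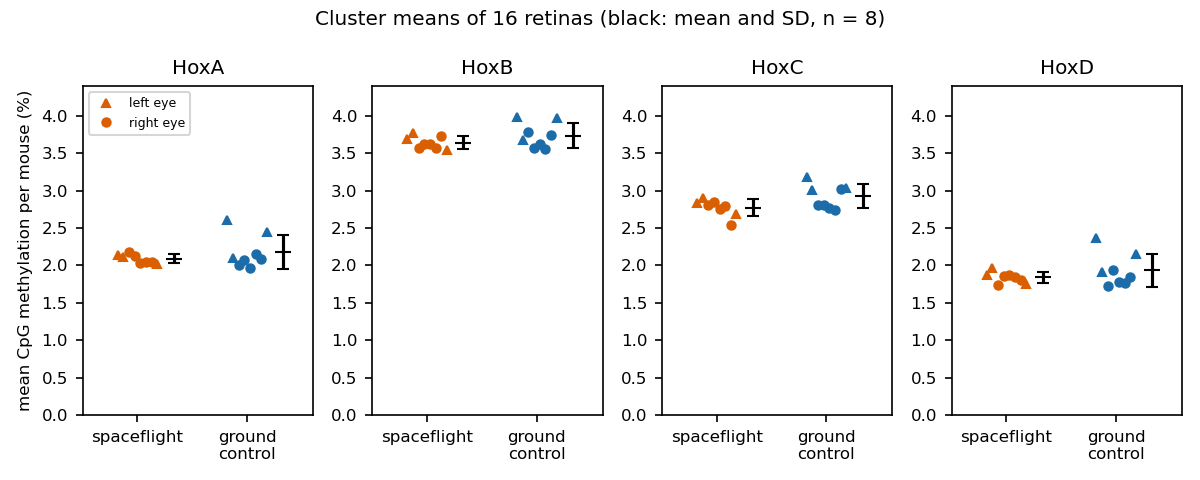
Mean methylation over the shared CpGs of each Hox cluster (y axis, percent), 1 point per mouse, with spaceflight left of ground control and the mean and SD of 8 mice in black. The groups overlap in all 4 clusters, and M31 and M39 are the highest ground control mice.

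In the mean over all Hox CpGs M31 was 0.444 points and M39 0.312 points above the other 6 ground control mice. By single CpG, M31 was above their mean at 1298 CpGs (40.5%) and below at 1691. M39 was above at 1326 (41.4%) and below at 1659. At levels this low a single library can read 0 where a mean of 6 mice is above 0. These counts were not made for the other libraries, so they cannot decide whether the typical CpG was higher. In M31 215 CpGs, and in M39 158, were at least 5 points above the mean of the others, compared with 75 to 140 in each of the remaining 14 libraries. The lists shared 20 CpGs, 9.30% of the M31 list and 12.7% of the M39 list. Outside the Hox clusters M31 and M39 were not high in islands, with differences of -0.145 and -0.0269 points from the other ground control mice. Both are left eyes, and the part of the eye side in the excess was not tested. Among right eyes alone the difference over all Hox CpGs was -0.00919 points (5 against 5 mice, exact p = 0.746, smallest possible p 0.00794). Among left eyes alone it was -0.263 points (3 against 3 mice, exact p = 0.2, smallest possible p 0.1).

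Weighting the CpGs by their reads gave another answer. When methylated reads were divided by all reads over the Hox windows, the level was 2.62 ± 0.142% in spaceflight and 2.88 ± 0.142% in ground control mice (SD, n = 8 each). The difference was -0.265 points (exact permutation p = 0.00155, adjusted p = 0.00326). HoxB (-0.361 points, exact p = 0.0106, adjusted p = 0.0148), HoxC (-0.318 points, exact p = 0.000932, adjusted p = 0.00326) and HoxD (-0.263 points, exact p = 0.00186, adjusted p = 0.00326) passed as well, and HoxA did not (-0.141 points, exact p = 0.136, adjusted p = 0.136). The reads themselves were spread differently. The 278 Hox CpGs at 5% or more held 9.52 ± 0.576% of the Hox reads in spaceflight and 10.2 ± 0.292% in ground control mice (exact p = 0.0104). With the same weight for a CpG in all 16 libraries, an alternative chosen after seeing the data, the difference over all Hox CpGs was -0.119 points (exact p = 0.127, adjusted p = 0.252). The pooled level of the other autosomal CpGs was likewise lower after spaceflight, at 37.0 ± 2.43% against 40.2 ± 1.33% (exact p = 0.00559), whereas their mean per CpG was 36.5 ± 0.234% against 36.5 ± 0.233%.

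Single CpGs were tested by logistic regression with an overdispersion factor and Benjamini-Hochberg adjustment over all 1071432 CpGs. A CpG was called where the adjusted p did not exceed 0.05 and the pooled levels lay 10 points or more apart. None of the 3206 Hox CpGs was called, and the background was 0% of all CpGs, with 0.865 as the lowest adjusted p of a Hox CpG. Only 95 Hox CpGs had a ground control mean of 10% or more, which leaves room for a fall of 10 points. At an unadjusted p of 0.05 or under there were 165 Hox CpGs (5.15%), against 4.09% of all CpGs. Of these, 79 (2.46%) were lower after spaceflight, against 2.14% of all CpGs, and 86 (2.68%) higher, against 1.95%. With 10 points added to that limit 3 Hox CpGs remained (0.0936%), against 0.188% of all CpGs. Among CpGs with a mean level under 5%, it was 0 of 2928 Hox CpGs and 0 of 549931 of all. The 2 shares thus depend on how many CpGs lie above 5%, and they were not matched for level. Of the Hox CpGs, 1691 (52.7%) had a lower pooled level after spaceflight, against 48.7% of all CpGs, and at none were all mice of one group above those of the other, against 0.00803% of all CpGs.

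The sequences around 4 of these CpGs follow, the 3 with 10 points and the one with the lowest p of HoxD, since the values that follow are those of these CpGs. Each is 30 bases of the plus strand of GRCm38 with the measured CpGs in capitals, from chr11:96367994-96368023, chr11:96248788-96248817, chr15:102965596-102965625 and chr2:74722110-74722139.
Hoxb1 exon CpG: ctatttattacctcCGgaaaagcccacccc
Gm11539 exon CpG: tgagccgaaccaacCGgccacctctccctg
Hoxc10 upstream CpG: gcaaaaaaatagacCGctcctcttctttaa
Hoxd4 exon CpG: tccagccagCGcccCGggctcaggagacag

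The CpG in a Hoxb1 exon, 2250 bp past the gene start, measured 0%, 10.5% and 18.2% (lowest, median and highest mouse) after spaceflight, against 12.5%, 19.4% and 30% in ground control mice. It was lower in most spaceflight mice, and the groups overlapped between 12.5% and 18.2%. The pooled difference was -10.4 points on 400 reads in all (binomial logistic regression p = 0.0106, adjusted p = 0.865). Depth was low here, with 11 to 40 reads in a spaceflight and 14 to 34 in a ground control library.

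The CpG in a Gm11539 exon closes the methylated stretch of HoxB. It measured 87.8%, 92.9% and 100% after spaceflight, against 46.9%, 85.8% and 89.3% in ground control mice. The low value was that of M31, with 15 of 32 reads methylated (exact 95% interval 29.1 to 65.3%), and the groups overlapped between 87.8% and 89.3%. The pooled difference was 11.4 points (binomial logistic regression p = 0.0255, adjusted p = 0.865), and 7.07 points without M31 (pooled levels 92.2% and 85.1%, binomial logistic regression p = 0.0268).

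The third, 1186 bp upstream of Hoxc10, a gene of the lumbar region, measured 8.0%, 12.2% and 28.3% after spaceflight, against 10.7%, 27.9% and 40.6% in ground control mice. The groups overlapped from 10.7% to 28.3%, with a pooled difference of -10.2 points (binomial logistic regression p = 0.0499, adjusted p = 0.865). The second CpG of the Hoxd4 exon sequence, 146 bp past the Hoxd4 start, measured 3.92%, 7.08% and 10.8% after spaceflight, against 0%, 0.769% and 4.26% in ground control mice. Methylated reads were found in all 8 spaceflight mice and in 4 of the 8 ground control mice, and the groups overlapped narrowly. Its pooled difference was 5.38 points (binomial logistic regression p = 0.000911, adjusted p = 0.865).

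The lowest p of the other clusters also belonged to CpGs with a few methylated reads. In an exon of Hoxa11os, the antisense gene of Hoxa11, 11 of 548 reads were methylated after spaceflight and 0 of 659 in ground control mice, which allows up to 0.455% there (binomial logistic regression p = 0.000921, adjusted p = 0.865). In the Hoxc12 exon 10 of 341 reads were methylated after spaceflight and 0 of 332 in ground control mice, which allows up to 0.904% (binomial logistic regression p = 0.00234, adjusted p = 0.865). At the CpG 724 bp upstream of Hoxb13 it was 14 of 342 reads and 1 of 295 reads (binomial logistic regression p = 0.00828, adjusted p = 0.865). All of the 3 were unmethylated in 2 or 3 spaceflight mice too, so the groups overlapped at 0.

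**Figure D4:**
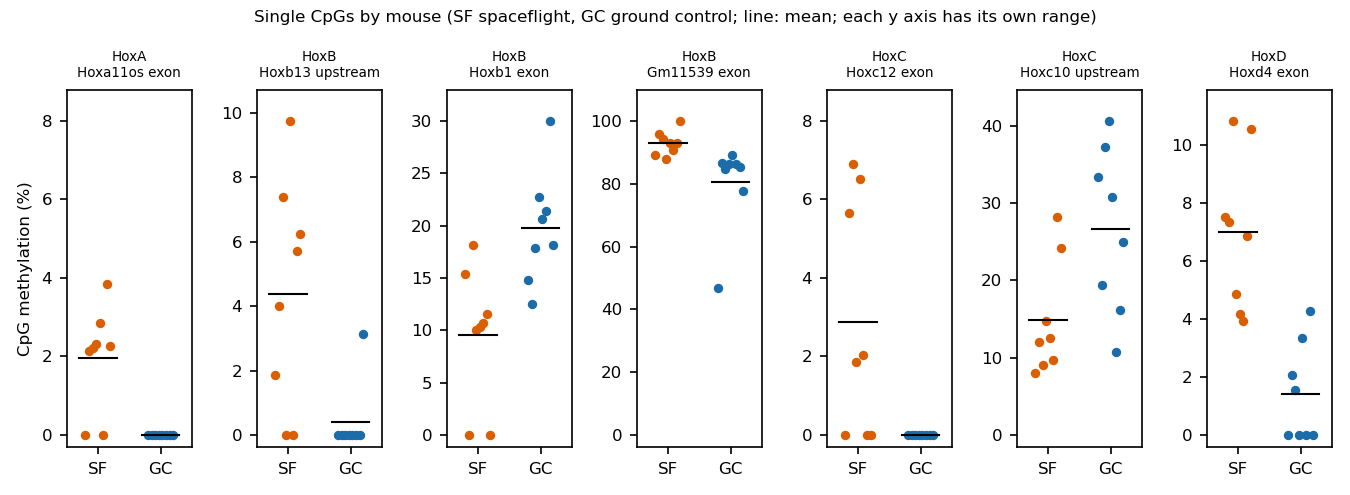
Methylation level (y axis, percent, each panel with its own range) of the 7 Hox cluster CpGs described, 1 point per mouse, with spaceflight (SF) left of ground control (GC) and a line at the mean of 8 mice. The groups overlap at each CpG, and the single low point of the Gm11539 panel is M31 at 46.9%.

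Promoters gave the view by gene. Of 39 Hox genes, 35 had at least 5 shared CpGs within 1 kb of the start, and Hoxa3, Hoxa7, Hoxb3 and Hoxb8 did not. The highest promoter mean was 7.61%, at Hoxd4, with 34 of 35 under 5% and none at 20% or more. Among 12585 other protein-coding promoters 84.8% were under 5% and 7.17% at 20% or more. The median over Hox promoters was nevertheless higher, at 1.48% against 0.559% over the others in spaceflight mice and 1.495% against 0.551% in ground control mice. The gap was 0.932 points and positive in 16 of 16 mice (exact sign-flip p = 3.05e-05, adjusted p = 3.23e-05). At levels this low the part of incomplete bisulfite conversion was not tested.

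The highest promoter was that of Hoxd4, whose gene is used in the hindbrain and upper spine, and it lies in an intron of the longer Hoxd3 annotation. Its level was 6.27%, 7.44% and 9.36% (lowest, median and highest mouse) after spaceflight, against 4.85%, 7.70% and 9.50% in ground control mice. The means were 7.69 ± 1.02% and 7.53 ± 1.496% (SD, n = 8 each), and the groups overlapped over most of their range. With all reads of a group pooled the levels were 9.23% and 10.4%, a difference of -1.19 points that ran against that of the means (binomial logistic regression p = 0.197, adjusted p = 0.916). The CpG 27 bp before the start, the last measured one of the Hoxd4 promoter sequence, was at 19.4 ± 3.34% and 22.9 ± 3.87%, while Hoxd8 in the same cluster had 0.574 ± 0.149% and 0.674 ± 0.195% over 93 promoter CpGs. In HoxD, Hoxd12, a gene of the limb and tail, followed Hoxd4 with 3.23 ± 0.255% and 3.54 ± 0.471%, and then Hoxd10 with 1.30 ± 0.387% and 1.68 ± 0.577%.

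In the other clusters the highest promoters stood near 4%. In HoxA it was Hoxa9, a trunk gene also used in blood stem cells, with 3.98 ± 1.29% in spaceflight and 4.26 ± 0.979% in ground control mice, then Hoxa6 with 3.53 ± 0.428% and 3.72 ± 0.590% and Hoxa5 with 2.04 ± 0.216% and 2.11 ± 0.450%. In HoxC it was Hoxc10 with 4.21 ± 0.499% and 4.30 ± 0.906%, then Hoxc9 with 2.88 ± 0.481% and 3.22 ± 0.791% and Hoxc6 with 2.21 ± 0.934% and 2.61 ± 0.670%. In HoxB it was Hoxb1 with 3.85 ± 1.04% and 3.46 ± 1.36%, then Hoxb13 with 3.24 ± 0.740% and 3.17 ± 0.544% and Hoxb7 with 2.06 ± 0.238% and 2.21 ± 0.255%. The lowest were Hoxb2 in HoxB (0.862 ± 0.767% and 0.906 ± 0.866%) and Hoxc11 in HoxC (1.17 ± 0.290% and 1.26 ± 0.518%), as Hoxd8 was in HoxD (SD, n = 8 each for all). The places of Hoxb2 and Hoxa9 rest on few CpGs, 6 and 5, with as few as 102 and 97 reads in a library.

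Promoter levels followed no single order along the clusters. Averaged over the clusters, the promoters of paralog group 4 were highest (2.95% over 4 promoters) and those of group 8 lowest (0.976% over 2), and neighbouring groups 12 and 13 had 2.68% and 1.63%. Within group 4 the levels ran between 1.18% and 7.61%, a wider range than between the groups. The starts of the Hox microRNA genes were low as well: Mir196a-1 had 1.82% and 1.88% (medians of spaceflight and ground control mice), Mir196a-2 1.82% and 2.09%, Mir196b 2.57% and 2.78%, Mir615 2.70% and 2.94%, and Mir10b 2.87% and 3.44%.

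**Figure D5:**
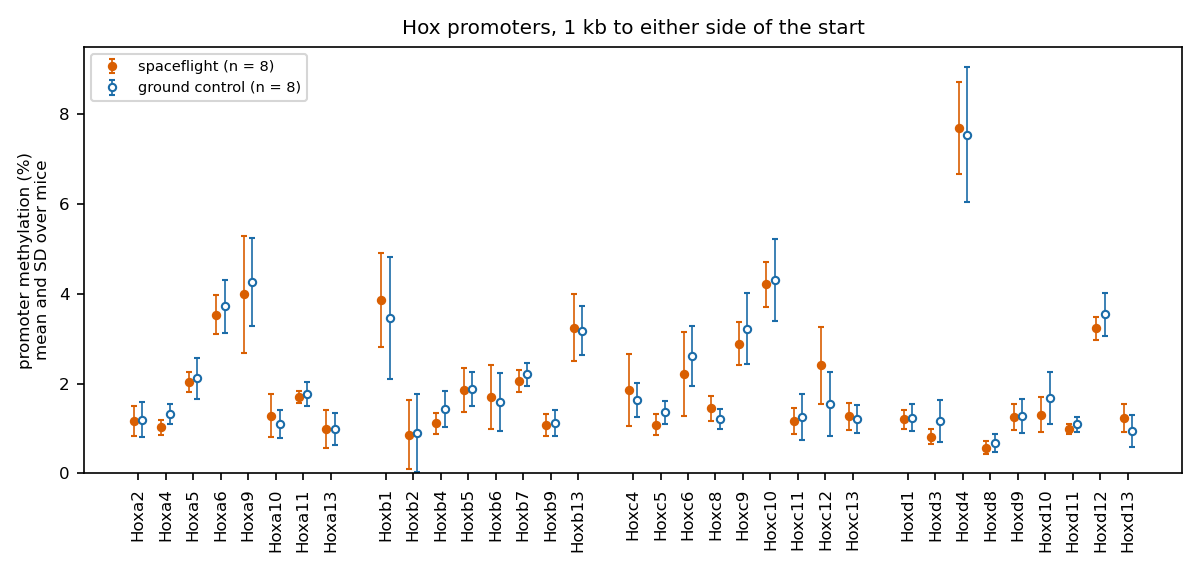
Promoter methylation (y axis, percent; mean and SD of 8 mice) of 34 of the 35 Hox genes with at least 5 shared CpGs within 1 kb of the start, with spaceflight left of ground control for each gene. Hoxd4 is the only promoter above 5%, and the error bars of the groups overlap there.

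No Hox promoter was called different between spaceflight and ground control, and the background was 0% of 16008 promoters by the same logistic regression. At an unadjusted p of 0.05 or under there was 1 of 35 Hox promoters (2.86%), against 5.59% of all promoters. It was Hoxa4, a gene of the neck region, with 0.758%, 1.04% and 1.23% (lowest, median and highest mouse) after spaceflight, against 1.07%, 1.22% and 1.73% in ground control mice. The groups overlapped, and the pooled difference was -0.224 points (binomial logistic regression p = 0.0243, adjusted p = 0.810). The lowest adjusted p elsewhere was 0.916 in HoxB (Hoxb7), 0.913 in HoxC (Hoxc12) and 0.892 in HoxD (Hoxd12). Of the 35, 24 (68.6%) had a lower pooled level after spaceflight, against 52% of all promoters. This share is not given without M31 and M39. M31 was the highest mouse at Hoxd3, Hoxd8 and Hoxd10, among others, and M37 at Hoxa4, Hoxc5 and Hoxd11.

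Tiles of 1 kb gave the view by position. Of 197 Hox tiles none was called, as none of 101997 tiles of the genome was (0%), and 12 (6.09%) had an unadjusted logistic regression p of 0.05 or under, against 4.64% of all tiles. With median tile levels of 1.67% to 2.22% in the 4 clusters, a fall of 10 points was out of reach at most Hox tiles. Lower after spaceflight were 121 (61.4%), against 51.9% of all, a share that is not given without M31 and M39 either. The lowest p of a tile was at the start of Hoxd4, chr2:74722001-74723000, which holds the Hoxd4 exon CpG described. Its level was 2.67%, 4.41% and 8.21% (lowest, median and highest mouse) after spaceflight, against 0.980%, 1.86% and 3.74% in ground control mice (binomial logistic regression p = 0.00142, adjusted p = 0.990). Spaceflight mice were mostly higher, and the groups overlapped between 2.67% and 3.74%. In the other clusters the tiles of lowest p had pooled levels of 0.903% and 1.14% (at the Hoxa4 start), 2.71% and 1.46% (in Hoxb9) and 1.33% and 1.98% (1325 bp before Hoxc12) in spaceflight and ground control mice, each with an adjusted p of 0.990.

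Of all Hox tiles the most methylated lay in the HoxB stretch, where chr11:96232001-96233000 reached 93.9 ± 2.19% in spaceflight and 93.0 ± 2.79% in ground control mice. In HoxC the highest tile, in the Hoxc9 intron, had 21.7% and 20.9%, in HoxA one in the Hoxa3 intron 15.2% and 16.4%, and in HoxD one in Hoxd3 9.03% and 10%. In HoxB a tile 1815 bp before Hoxb13 varied most between mice, with 18.4% to 37.1% in spaceflight and 20.1% to 27.4% in ground control mice.

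Expression of the Hox genes was near or at 0 in the retina. The unit is FPKM, a level per transcript length and sequencing depth, and as these are bulk samples, fewer cells of a type and less RNA per cell cannot be told apart. All 39 Hox genes were in the table, 13 were listed at 0 in every library, and 26 were above 0 in at least 1 library. The highest value was 0.370 FPKM, for Hoxb7 in 1 ground control library, which also had the highest Cryaa (15011 FPKM) and Rpe65 (571.6 FPKM) of all libraries. The part of lens or pigment epithelium RNA in this value was not tested. No Hox gene reached a mean of 1 FPKM, so none entered the limma test on log2(FPKM + 0.1). Without that filter none of the 26 had an unadjusted limma p of 0.05 or under.

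Hoxb1 was the Hox gene found most often, above 0 in 7 of 9 spaceflight and 6 of 7 ground control libraries. Its lowest, median and highest values were 0, 0.0281 and 0.131 FPKM in spaceflight and 0, 0.0441 and 0.0645 FPKM in ground control retinas, and the groups overlapped. Hoxc13, a gene of skin and hair follicles as well as of the tail, was above 0 in 2 spaceflight libraries (0.366 and 0.0759 FPKM) and in 1 ground control library (0.0383 FPKM). The library with 0.366 FPKM also held the skin keratin Krt1 at 274.0 FPKM, against medians of 1.36 and 1.48 FPKM over spaceflight and ground control libraries, and Krt10 at 355.9 FPKM, beside 9594 FPKM of Cryaa. The part of skin or lens RNA in its Hoxc13 value was not tested. Hoxb7 was also above 0 in 1 spaceflight library (0.0488 FPKM). Hoxc8, next by mean level, was above 0 in 3 of 9 spaceflight and 0 of 7 ground control libraries, and Hoxd8 in 1 and 0. The Hoxd8 value, 0.110 FPKM, came from the same library as the 0.366 FPKM of Hoxc13. Of the Hoxc8 values, 0.0520 FPKM came from M26, which had the most Hox genes above 0 (15).

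The genes that hold or open Hox clusters were present, and none was called. Of 37 listed members of Polycomb complexes, trithorax and MLL complexes, H3K27 demethylases, cohesin with Ctcf, and Hox cofactors, 35 had a mean of 1 FPKM or more (Cbx2 and Pbx4 did not). Of these, 1 was higher and none lower at an unadjusted limma p of 0.05 or under, against 7.3% of the 14336 genes tested, and the call rate over all genes was 0%. Their median log2 difference was 0.0002, against 0.0125 over all genes tested. Jarid2, which recruits Polycomb repressive complex 2, had 24.5, 28.5 and 31.3 FPKM (lowest, median and highest) in spaceflight and 18.8, 25.3 and 26.5 FPKM in ground control retinas. M21, with the conflicting labels, had 30.7 FPKM. In 8 of 9 spaceflight libraries the value was above the ground control range (log2 difference 0.26, SE 0.078, limma adjusted p = 0.585). The libraries with most Cryaa, M31, M37 and M22, had 18.8, 21.3 and 24.5 FPKM of Jarid2. M32, with 117 FPKM of Cryaa, had 21.9 FPKM. The part of lens RNA in the Jarid2 difference was not tested. Men1, a partner of MLL, had a log2 difference of -0.13 (SE 0.077, limma adjusted p = 0.754), and Cbx7, which reads the Polycomb mark, -0.10 (SE 0.067, limma adjusted p = 0.767).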

How the data were processed

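Retinal DNA was read by RRBS in 16 libraries (8 spaceflight, 8 ground control), in which DNA is cut by MspI, converted by bisulfite and sequenced. Per the labels and the study's methods, the authors used Trim Galore 0.4.5 for trimming, random tags to drop duplicates and Bismark for alignment to GRCm38. Their deposited tables, in the layout of methylKit, hold a read count (coverage) per cytosine of a CpG with the percent methylated. Duplicates left or removed wrongly would change counts, and MspI limits the CpGs to those near CCGG. RNA reads went through Trimmomatic, TopHat2 and Cufflinks in the authors' hands, which gave the deposited FPKM; 2 columns of that table matched no sample here and were not used, and the 1 entry without a gene name held up to 0.388% of a library's FPKM.

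Here percents were turned back into read counts, strands were added, and CpGs of autosomes and X were kept where each of the 16 libraries had 10 reads or more. Libraries held 61652709 to 80242659 (spaceflight) and 59572205 to 105298542 (ground control) reads on CpG cytosines. Single CpGs, promoters (1000 bp to either side of a RefSeq start, at least 5 CpGs) and 1 kb tiles (at least 3 CpGs) were tested over the whole genome by logistic regression on the counts of both kinds of read, with a McCullagh-Nelder overdispersion factor not below 1, an F-test and Benjamini-Hochberg adjustment. Islands were called from sequence (length of 200 bp or more, GC of 50% or more, observed to expected CpG ratio of 0.6 or more). A cluster mean weights CpGs equally. Expression was tested by limma 3.58.1 (trend option) on log2(FPKM + 0.1) for genes averaging 1 FPKM or more, with calls at a fold of 1.2, p of 0.05 and adjusted p of 0.3, and reads behind an FPKM are unknown. Kmt2a and Kmt2b stand in the table as Mll1 and Wbp7. Python 3.11.15, NumPy 2.4.6, pandas 2.3.3, SciPy 1.17.1 and R 4.3.3 were used, and the tests were tried on simulated data.

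The windows, gene lists and tests were chosen with earlier results of these data known. Described in each cluster were the CpG of lowest p and those at p of 0.05 or under with 10 points, the 3 highest, the lowest and the lowest-p promoter, and the highest, most variable and lowest-p tile; of the Hox genes the 5 of highest FPKM, and of the regulators the 3 of lowest p. CpGs at 20% or more were added after their values were seen, and 2 genes are not reported here. The RNA library of mouse M21 is ground control by its condition label and spaceflight by its source name, and was counted as spaceflight. For 6 ground control RNA libraries mouse numbers of the labels and of the study's tables differ, so DNA and RNA were not joined by mouse. Alternatives were other read minimums, windows and weights, strands apart, each eye alone, other overdispersion, and leaving out libraries.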

Additional observations from a re-analysis of the deposited data

Results flagged for a closer look

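In 84 groups of 8 libraries the highest or lowest mouse was compared with its nearest neighbour by Dixon's ratio. In 4 groups a mouse was past the 95% critical value. Chance gives about 1 in 20 only for groups not picked by their values. Some of these were picked by p or by spread between mice, so that rate does not apply to them. At the CpG 724 bp upstream of Hoxb13, ground control mouse M39 had 3.12% (1 of 32 reads), and the other ground control mice 0. With the others all at 0, the ratio is 1 for any value above 0. At the Gm11539 exon CpG, ground control mouse M31 had 46.9%, and the others 77.8% to 89.3%. At the Hoxd10 promoter, spaceflight mouse M21 had 2.12%, and the others 0.932% to 1.45%. In the tile before Hoxb13, spaceflight mouse M27 had 37.1%, and the others 18.4% to 26.98%.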

How the results depend on the processing

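Over all alternatives no Hox CpG, promoter, tile, Hox gene or regulator was called. The difference over all Hox CpGs stayed between -0.265 and -0.00919 points; pooling reads gave -0.265 there, -0.361 in HoxB, -0.318 in HoxC, -0.263 in HoxD, -0.123 in islands and -0.640 outside islands, each at an adjusted p of 0.0446 or under. Among right eyes HoxA had 0.0325 and HoxD 0.0160 points, and without M31 and M39 0.0281 and 0.0130 points, the sign opposite to that with all libraries; the cause was not tested. The 3 Hox CpGs at an unadjusted p of 0.05 with 10 points became 0 at a minimum of 20 reads, 9 at 5 points, 1 without M31 and M39, and 1 to 3 when single libraries were left out (1 on leaving out M22, spaceflight, or M31, ground control). Leaving out M31 and M39 together, common weights, and for RNA a minimum of 1 FPKM in all 16 libraries, leaving out 1 further library (M37) and regulators in right eyes alone, and single CpGs, promoters and tiles without 1 library were chosen after seeing the data. No difference of a CpG, promoter or tile described and refitted so changed sign, and 1 moved by over 1.5 times, the Gm11539 CpG at 7.07 points without M31. No paired analysis was possible because replicate numbers only name the mice. Median depth was 41 to 73 reads per CpG and library, and the difference detectable at 1 CpG was not computed.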
